A study of Mus musculus with 6 samples.

Results

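The 10 genes examined here are Cdh1, Cdh2, Vim, Krt8, Krt18, Snai1, Snai2, Zeb1, Zeb2 and Twist1, the cadherins, cytoskeletal genes and transcription factors by which an epithelial-mesenchymal transition (EMT) is usually followed, together with the keratins of simple epithelia. They were taken by gene symbol out of 24288 symbols in the expression table, with earlier results of these data known. Where a symbol had more than 1 transcript entry, the entry with the highest total was used, which concerned only Zeb2, with 2 entries. Their RNA had been sequenced in epiblast-like cells on day 2 of differentiation (EpiLCs), the in vitro counterpart of the early post-implantation epiblast, in wild-type (WT, n = 3) and Smad2/3 double knockout (DKO, n = 3) cultures.

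WT cells were the CCE embryonic stem cell (ESC) line and DKO cells were clone KT15.1F6, both of strain 129/Sv//Ev. Per the study's methods, DKO lines were made by removing exon 1 of Smad3 with paired nickases from ESCs that carried the tm1Rob targeted allele on both copies of Smad2. All cultures of both genotypes came from ESCs kept with LIF and a pair of kinase inhibitors, and were then held for 48 h on fibronectin in 12 ng/ml Fgf2 and 20 ng/ml activin A, with serum replacement. The 3 libraries of a genotype were separate differentiations of the same line. Each genotype was therefore represented by 1 line, so that a difference between the lines and a difference due to the missing Smads cannot be told apart.

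Values are given as normalized reads, namely reads over the whole gene body, introns included, divided by 1 size factor per library. Depth was similar in all libraries, at 57644143 to 63046034 reads. The WT libraries held 839 ± 37.0 normalized reads of Smad3 and the DKO libraries 23.6 ± 6.16 (SD, n = 3), a log2 difference of -5.12 ± 0.13 (SE). Smad2 was at 4520 and 5062 normalized reads, respectively, and whether reads of the tm1Rob allele lie outside its altered part was not examined. A gene was called changed when limma gave a Benjamini-Hochberg adjusted p under 0.05 over all entries and the fold change exceeded 1.5.

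Epithelial cells are held together by E-cadherin, which joins neighbouring cells and binds catenins inside the cell, and their cytoplasm is spanned by keratin filaments. In an EMT, as at gastrulation, the Snail, Zeb and Twist transcription factors repress E-cadherin, N-cadherin is gained and vimentin replaces keratins as the main intermediate filament. The epiblast is itself an epithelium. Nodal and activin, acting through Smad2 and Smad3, are needed for the primitive streak in which this transition takes place.

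All 10 genes had enough reads to be tested, and 4 were changed in DKO EpiLCs. Krt8 and Vim rose, and Cdh2 and Snai2 fell. Of all 17038 genes tested, 15.4% were changed (15.4% also of the 25361 entries), 8.03% lower and 7.34% higher, so that calls were frequent in this comparison as a whole. Cdh1 and Krt18 passed the adjusted p but stayed within 1.5-fold. In total 6 of the 10 genes passed the adjusted p at any fold, against 53.6% of all genes. The 3 WT and 3 DKO values did not overlap in 7 of the 10 genes, against 59.0% of all genes. The median log2 difference (DKO minus WT) was -0.11 over the 10 genes and 0.00 over all genes. In such bulk samples, fewer cells that express a gene and less of its RNA per cell cannot be told apart.

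**Figure D1:**
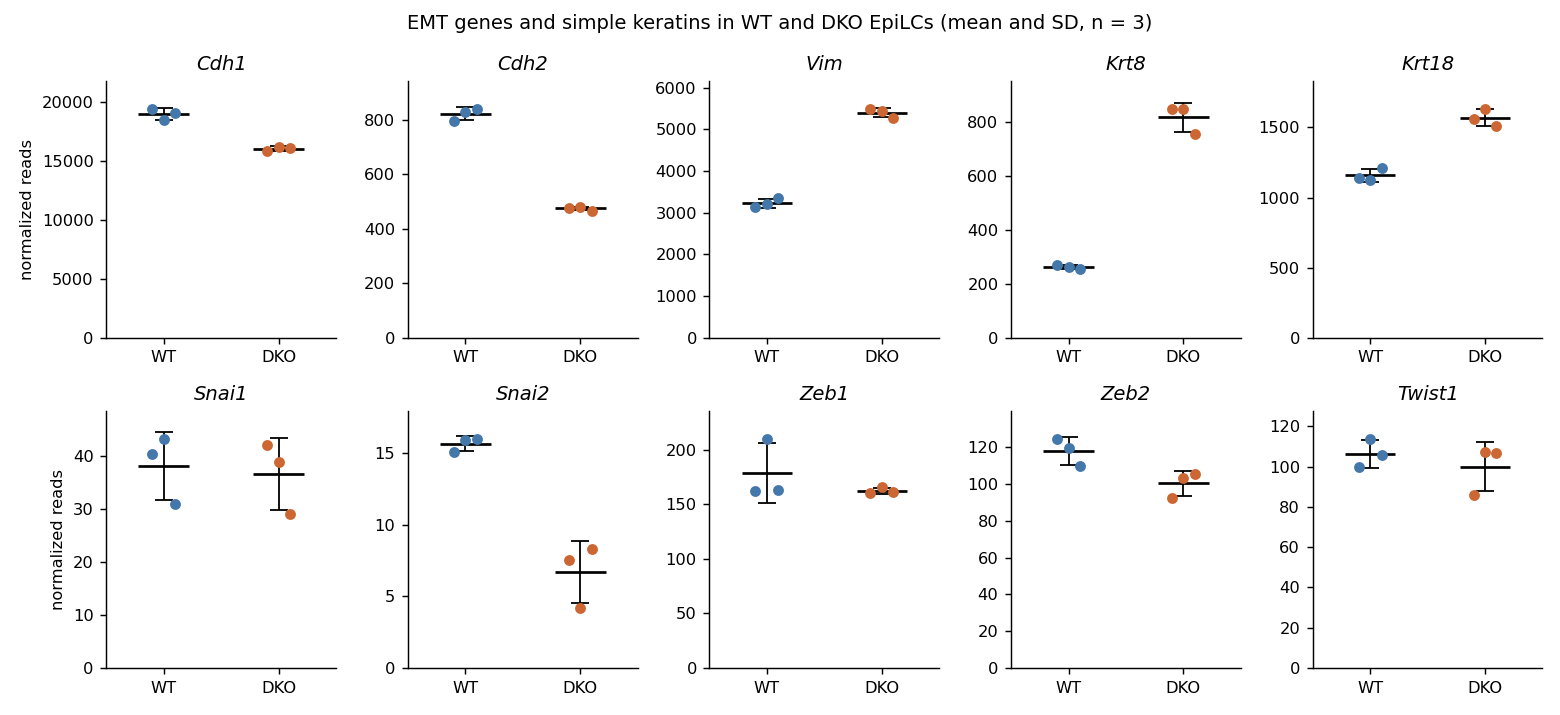
Normalized reads (vertical axes, each starting at 0) of the 10 genes in each library, with points for the 3 WT (blue) and 3 DKO (orange) libraries and with bars for the mean and SD. All 3 DKO libraries lie above all 3 WT libraries for Krt8, Krt18 and Vim and below them for Cdh1, Cdh2, Snai2 and Zeb2, while Snai1, Zeb1 and Twist1 overlap.

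Cdh1 encodes E-cadherin and lies on chromosome 8 at 106603350 to 106670247 (plus strand, GRCm38.p6, as for all positions here). The WT libraries held 19471, 18456 and 19109 normalized reads of Cdh1 and the DKO libraries 15826, 16242 and 16083. Every DKO library was below every WT library. The means were 19012 ± 515 and 16050 ± 209.6 (SD, n = 3), so that DKO EpiLCs kept 84.4% of the WT level. The log2 difference of -0.24 ± 0.02 (SE, 95% interval -0.29 to -0.20) had an adjusted p of 1.03e-09 in limma, but lay under the 1.5-fold threshold.

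Cdh2, which encodes N-cadherin, spans 16588877 to 16809246 on the minus strand of chromosome 18. It was at 794, 827 and 841 normalized reads in WT and at 476, 480 and 467 in DKO libraries. The groups were well apart, with little spread among the DKO libraries. Cdh2 fell 1.73-fold, from 821 ± 24.0 to 474 ± 6.96 (SD, n = 3), a log2 difference of -0.79 ± 0.05 (limma, adjusted p = 1.92e-13). Exons make up 2.20% of the Cdh2 gene body, and the antisense gene Gm15485 overlaps it. Whether the authors' counting used strand was not stated, so reads of the antisense gene cannot be told apart from those of Cdh2.

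Cdh1 and Cdh2 thus both had lower values in the DKO libraries, with the larger log2 difference for Cdh2. The ratio of Cdh1 to Cdh2 within a library was 24.5, 22.3 and 22.7 in WT and 33.3, 33.8 and 34.5 in DKO. Its mean moved from 23.2 ± 1.18 to 33.9 ± 0.605 (SD, n = 3), 1.46-fold higher in DKO. The exact two-sided permutation test over the libraries gave p = 0.1 (0.15 after adjustment over the 3 ratios examined), which is the smallest value that 3 against 3 libraries allow.

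Vim encodes vimentin, the intermediate filament of mesenchymal cells (chromosome 2, 13574311 to 13582826, plus strand). It was at 3132, 3201 and 3344 normalized reads in WT and at 5501, 5435 and 5277 in DKO libraries. The DKO values lay far above the WT values, with little spread in either group. Vim rose 1.68-fold, from 3226 ± 108 to 5404 ± 115 (SD, n = 3), with a log2 difference of 0.74 ± 0.03 (limma, adjusted p = 4.20e-18). Its direction was therefore opposite to that of Cdh2, although both are read as mesenchymal genes.

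Krt8 and Krt18 encode the type II and type I keratins that pair into the filaments of simple epithelia. They lie side by side on chromosome 15, with 23873 bp between them, Krt8 at 101996711 to 102004342 on the minus strand and Krt18 at 102028216 to 102032026 on the plus strand. Krt8 was at 269, 263 and 254 normalized reads in WT and at 848, 849 and 756 in DKO libraries. The lowest DKO library was far above the highest WT library. Krt8 rose 3.12-fold, from 262 ± 7.15 to 818 ± 53.7 (SD, n = 3), with a log2 difference of 1.64 ± 0.06 (limma, adjusted p = 7.96e-19), and only 2.27% of all genes tested had a larger absolute log2 difference. The lincRNA gene Gm36026 overlaps Krt8 on the other strand, and a processed pseudogene of it, Krt8-ps, lies on chromosome 7, so that part of these reads cannot be assigned with certainty.

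Krt18 was above Krt8 in every library, per kb of gene body as well, at 1142, 1123 and 1208 normalized reads in WT and 1563, 1635 and 1512 in DKO. The groups did not overlap, but the step between them was smaller than for Krt8. The means were 1158 ± 44.7 and 1569.9 ± 61.7 (SD, n = 3), a ratio of 1.36 and a log2 difference of 0.44 ± 0.04 (95% interval 0.35 to 0.52) with an adjusted p of 4.61e-10 in limma. The log2 difference stayed within 1.5-fold, so Krt18 was not called changed, and the interval ends below 1.5-fold as well. The ratio of Krt8 to Krt18 within a library was 0.235, 0.234 and 0.211 in WT and 0.543, 0.520 and 0.500 in DKO, on average 2.30-fold higher in DKO. The exact two-sided permutation test again gave the smallest possible p of 0.1 (0.15 adjusted).

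Markers of an extra-embryonic cell type were also higher in DKO EpiLCs. All 8 tested of 9 trophectoderm and extra-embryonic ectoderm markers were called higher (median log2 difference 1.64), against 7.34% of all genes. This list was chosen with earlier results of these data known and holds a keratin, Krt7. The paper had already reported Gata2, Gata3 and Tfap2c as activated in DKO EpiLCs, so the count is not an independent result. The summed level of the list was 507 to 547 normalized reads in WT and 1263 to 1500 in DKO libraries. Gata3 was at 3.25 ± 1.35 in WT and 116 ± 10.7 in DKO, Gata2 at 5.09 and 60.8, Tfap2c at 67.5 and 390, and Ascl2 at 79.9 and 245. The calls of Eomes (without WT replicate 1 or without DKO replicate 2) and of Krt7 (without WT replicate 2 or without DKO replicate 2), both named after their values were seen, were lost when a library was left out, which left at least 6 of the markers called. Elf5, a defining marker of trophoblast stem cells, had at most 3.11 normalized reads in any library. The part of such cells in the rise of Krt8 was not tested.

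The sequence just upstream of these genes was examined for the hexamer CACCTG, the E-box bound by Snail and Zeb repressors, since these repressors are known to silence epithelial genes through it. RefSeq promoter windows (GRCm38.p6, 250 bases before to 50 after a start) were used for Vim, Krt8, Krt18, Snai1, Zeb2 and Twist1, and those of Cdh1, Cdh2, Snai2 and Zeb1 were not used here. The hexamer, searched on both strands, occurred in 3 of these 6 genes and in 20.2% of all 32851 windows. The first is a count of genes, which together had 9 windows, and the second a share of windows, so the units differ. Those of Snai1 and Krt18 are shown as examples from a repressor gene and a keratin gene, on the strand of the gene with the E-box in capitals, at chr2:167538057-167538086 (plus strand) for Snai1 and chr15:102027990-102028019 (plus strand) for Krt18.
Snai1: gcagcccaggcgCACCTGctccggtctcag
Krt18: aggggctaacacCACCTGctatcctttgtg
The E-box begins 126 bases before the start of Snai1 and 214 before that of Krt18.

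The same windows were searched for GCCNNNGGC, a core read by AP-2 factors, which occurred in 4 of the 6 genes (Vim, Zeb2, Snai1 and Krt18) and in 16.6% of all windows. The matches of Vim and Zeb2 lie in annotated exons. Here too counts of genes stand beside shares of windows, so the units differ. Of the Smad-type motifs, GGCGCC was found only in Krt18 among the 6 genes (11.9% of all windows) and GTCTAGAC in none of them (0.213% of all windows). In Krt18 the GGCGCC and GCCNNNGGC matches share bases. The stretch upstream of Krt18, chr15:102027966-102028179 on the plus strand, is shown with the E-box and this overlapping pair of matches in capitals, as Krt18 is the only one of the 6 genes searched in which 3 of the 4 motifs occur together.
Krt18 upstream: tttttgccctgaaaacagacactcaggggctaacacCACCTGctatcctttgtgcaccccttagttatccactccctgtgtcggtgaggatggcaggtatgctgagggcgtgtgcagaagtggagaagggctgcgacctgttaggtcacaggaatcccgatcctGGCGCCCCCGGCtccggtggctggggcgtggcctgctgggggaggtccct
A match is a run of letters and does not show that a factor binds there.

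**Figure D2:**
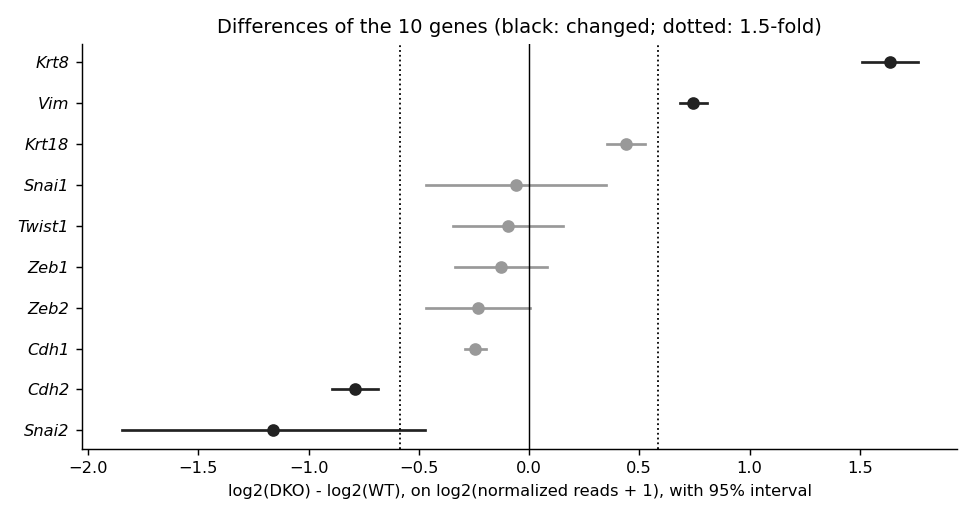
Log2 differences (DKO minus WT, horizontal axis, on the log2(normalized reads + 1) scale) of the 10 genes with their 95% intervals, black for changed genes and grey for the others, with dotted lines at 1.5-fold. Krt8 at 1.64 and Snai2 at -1.16 lie at the ends, Snai2 has the widest interval, and the intervals of Snai1, Zeb1, Zeb2 and Twist1 include 0.

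Of the 5 transcription factors, only Snai2 (Slug) was called changed. It lies on chromosome 16 at 14705852 to 14709395 (plus strand) and was weakly expressed. Only 28, 28 and 30 reads were counted in WT and 14, 8 and 16 in DKO libraries. All of these counts are even, as counting both ends of each fragment would give, so the fragments may be fewer than the reads. The normalized reads were 15.0, 15.9 and 16.0 in WT and 7.53, 4.20 and 8.29 in DKO. No DKO library reached the lowest WT library. Snai2 fell from 15.7 ± 0.535 to 6.68 ± 2.18 (SD, n = 3), 2.35-fold, with a log2 difference of -1.16 ± 0.33 (limma, adjusted p = 0.00440). The 95% interval, -1.85 to -0.47, includes 1.5-fold, and tested against that fold rather than against 0 the adjusted p was 0.506.

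Snai1, the Snail factor of gastrulation (chromosome 2, 167538195 to 167542814, plus strand), was at 40.3, 43.3 and 30.9 normalized reads in WT and at 42.0, 38.9 and 29.0 in DKO libraries. The groups overlapped throughout. The log2 difference was -0.06 ± 0.20 with a 95% interval of -0.47 to 0.35 (limma, adjusted p = 0.813). Differences inside this interval are not excluded by these libraries.

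Zeb1 and Zeb2 are paralogous zinc finger repressors of E-cadherin. Zeb1 (chromosome 18, 5591327 to 5775468, plus strand) was at 162, 210.0 and 163 normalized reads in WT and at 159.8, 165 and 161 in DKO. A single WT library stood above the other 5 libraries, which lay close together. Its log2 difference was -0.13 ± 0.10, with an interval of -0.33 to 0.08 (limma, adjusted p = 0.306).

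Zeb2 (chromosome 2, 44983512 to 45117442, minus strand) was at 125, 119.5 and 109.9 normalized reads in WT and at 92.6, 103 and 105 in DKO libraries. All DKO values were below all WT values, but by little. The log2 difference was -0.23 ± 0.11, with an interval of -0.47 to 0.0038 (limma, adjusted p = 0.0892). With its 2 entries summed, the log2 difference was -0.22 and the adjusted p from limma was 0.0294, past the p threshold but within 1.5-fold. Entries of the same gene, counted over gene bodies, can share reads, which the sum would count more than once. This adjusted p may therefore be too low, and no conclusion is drawn from it. The antisense transcript Zeb2os, which overlaps Zeb2, held 1.04 to 2.67 normalized reads, and Gm10125 on the other strand of Zeb1 held 20.8 to 34.4. The ratio of Zeb1 to Zeb2 was 1.51 ± 0.229 in WT and 1.62 ± 0.0989 in DKO (SD, n = 3), and the exact two-sided permutation test gave p = 0.5.

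Twist1 encodes a basic helix-loop-helix factor of mesoderm and neural crest (chromosome 12, 33957671 to 33959831, plus strand). It was at 99.9, 114 and 106 normalized reads in WT and at 86.1, 107 and 107 in DKO. Both higher DKO libraries lay inside the WT range. The log2 difference was -0.09 ± 0.12, with an interval of -0.34 to 0.16 (limma, adjusted p = 0.531).

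Divided by gene body length, the levels in WT EpiLCs were led by Vim (379 normalized reads per kb of gene body), Krt18 (304) and Cdh1 (284). Twist1 (49.3) and Krt8 (34.3) followed, then Snai1 (8.26), Snai2 (4.42) and Cdh2 (3.72), with Zeb1 (0.968) and Zeb2 (0.881) last. Zeb1 and Zeb2 were the only neighbours in this order whose ranges over libraries overlapped. In DKO EpiLCs Krt8 (107) stood above Twist1 (46.3), and Cdh2 (2.15) and Snai2 (1.88) overlapped, as Zeb1 and Zeb2 no longer did. Genes with long introns are low on this scale. Per kb of exon, Cdh1 came first in both groups (4292 normalized reads per kb of exon in WT, 3623 in DKO), and Cdh2 was at 169 and 97.9. Intron reads are included in these values, so genes with long introns are high on the exon scale. Exons make up 6.62% of the Cdh1 and 2.20% of the Cdh2 gene body.

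Krt8 and Krt18 were set against the other keratins, of which 49 were in the table and 11 had enough reads to be tested. Of these, 5 fell and 1 rose, with a median log2 difference of -0.61. Krt12, the keratin of corneal epithelium, fell 4.77-fold from 72.1 ± 10.7 normalized reads, by 2.21 on the log2 scale. Krt17 fell 3.01-fold, from 51.4 to 17.1, and Krt42 fell 1.90-fold, from 65.5 to 34.5. Krt10, a keratin of differentiated epidermis, fell from 43.5 to 28.1, a call that was lost without WT replicate 1 (log2 differences of -0.67 to -0.49 over all alternatives). Krt14 (24.3 to 11.0) and Krt7 (44.0 ± 10.6 to 67.3 ± 18.3), named after their values were seen, are the remaining keratin that fell and the keratin that rose. The call of Krt7, a simple keratin like Krt8, was lost without WT replicate 2 and without DKO replicate 2.

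The share of all keratin reads taken by Krt8 and Krt18 together was 75.8% to 77.2% in the WT libraries and 89.3% to 89.7% in the DKO libraries. Krt8 alone made up 14.2% ± 0.650 in WT and 30.6% ± 0.864 in DKO (SD, n = 3). No other keratin that was tested came near them, and 18 keratins had 3 reads or fewer in all 6 libraries. Of the 13 other intermediate filament and linker genes, all tested, 2 rose and none was called lower. Those that rose were Nefm, a neurofilament subunit (53.4 to 107 normalized reads), and Synm, which encodes synemin, a partner of vimentin (227 to 424). Named after their values were seen, further genes passed the adjusted p but stayed within 1.5-fold. Nefl (2004 to 1410 normalized reads), Nefh (1076 to 875), Nes (868 to 601), Lmna (649.9 to 479.9), Ina (1542 to 1355) and Lmnb1 (12471 to 11863) were lower in DKO. Prph (240 to 280) was higher. The median of this list was -0.07.

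**Figure D3:**
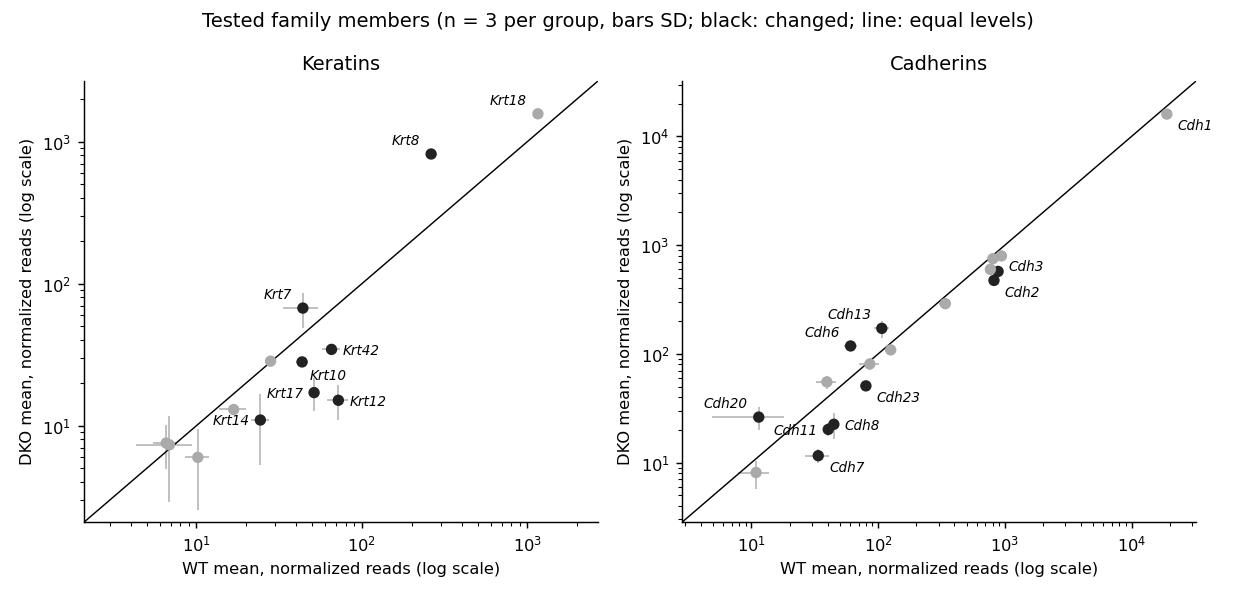
Mean normalized reads in DKO against WT (both axes logarithmic, n = 3, bars SD) for the tested keratins (left) and cadherins (right), black for changed genes, with a line of equal levels. Krt8 at 262 and 818 lies highest above the line among the abundant keratins, most of the less abundant keratins lie on or below it, and Cdh1 lies far to the right of all other cadherins.

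Among 21 further cadherins, 16 could be tested, of which 5 fell and 3 rose (median -0.23). Cdh1 held 78.5% ± 0.695 of all cadherin reads in WT and 79.4% ± 0.370 in DKO (SD, n = 3), and Cdh2 held 3.39% and 2.34%. Cdh7 fell by 1.45 on the log2 scale, from 33.6 to 11.6 normalized reads. Cdh8 (44.7 to 22.5) and Cdh11 (40.4 to 20.2), the latter a cadherin of mesenchyme and bone, also fell, whereas Cdh6 rose 1.95-fold, from 60.6 to 118. Named after their values were seen, Cdh3 (P-cadherin) and Cdh23 fell 1.54-fold and 1.58-fold, and Cdh13 and Cdh20 rose 1.61-fold and 2.30-fold. The calls of Cdh23 (without WT replicate 1 or without DKO replicate 2) and Cdh13 (without DKO replicate 1) were lost when a library was left out.

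The proteins that tie cadherins to the cytoskeleton were measured through 12 genes, of which 1 fell and 1 rose (median 0.03). Ctnna2, the alpha-catenin of neurons, fell 3.07-fold, from 170 ± 24.0 to 55.2 ± 8.25 normalized reads. Nectin1, an adhesion molecule that works beside cadherins, rose 1.59-fold, from 800.0 to 1269. The other 10 genes, among them those of beta-catenin (Ctnnb1) and plakoglobin (Jup), were not called changed. With the fold disregarded, 8 of the 12 genes passed the adjusted p in limma, against 53.6% of all genes. Among them, named after their values were seen, Jup (2584 to 3601 normalized reads), Ctnnb1 (32296 to 37786), Ctnnal1 and Nectin2 were higher within 1.5-fold. Ctnnd2 and Mllt4 were lower within 1.5-fold.

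Genes that maintain the epithelial state were represented by 13 regulators, all tested, of which 5 rose and 1 fell (median 0.18). Grhl3, a Grainyhead factor of surface epithelia, was at 79.5, 95.04 and 94.9 normalized reads in WT and at 329, 315 and 329.7 in DKO. The groups were far apart. Grhl3 thus rose 3.61-fold, with a log2 difference of 1.85 ± 0.10 (limma, adjusted p = 1.30e-15). Rbm47, an RNA-binding protein, rose 2.97-fold (173 to 514), Elf3, an epithelial Ets factor, rose 2.90-fold (262 to 760), and Klf5, a factor of trophectoderm and gut epithelium, rose 1.87-fold (135 to 252). Ovol1, which rose 1.67-fold, and Ehf, which fell from 13.1 to 4.93 normalized reads, were named after their values were seen, and the call of Ehf was lost without WT replicate 1.

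Of 17 further mesenchymal genes, 12 were tested, and 2 fell and 2 rose (median -0.38). Snai3, the remaining Snail gene, fell 1.77-fold, from 154 ± 25.1 to 86.6 ± 5.39 normalized reads. Cald1, which encodes the actin-binding protein caldesmon, rose 2.34-fold, from 647 to 1514. Sparc, a matrix glycoprotein that the paper counts among visceral endoderm markers, rose 1.94-fold, from 3134 to 6071. Named after their values were seen, further genes passed the adjusted p but stayed within 1.5-fold on the test scale. Fn1 (7738 to 5326 normalized reads), Mmp2 (521 to 440), Mmp14 (339 to 235) and Tgfbi (111 to 74.2) were lower. Tagln (91.2 to 112) and Mmp9 (61.4 to 80.2) were higher. Among the called genes named here, Vim, Cald1 and Sparc thus rose while Cdh2, Snai2 and Snai3 fell.

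None of the 11 genes for partners of Snail and Zeb proteins, the corepressors and the enzymes that control Snail stability, was called changed. Their median was -0.06, and 6 of them passed the adjusted p when the fold was disregarded. The hairpins of the miR-200 family, which restrain Zeb1 and Zeb2, had at most 11 reads in any library and were not tested. Over all 8 lists, 88 of 141 genes were tested and 28 of them (31.8%) were changed, 14 lower and 14 higher. Of all genes tested, 15.4% were changed, but the lists were chosen with earlier results of these data known. The larger share is therefore not read as a result about these genes.

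**Figure D4:**
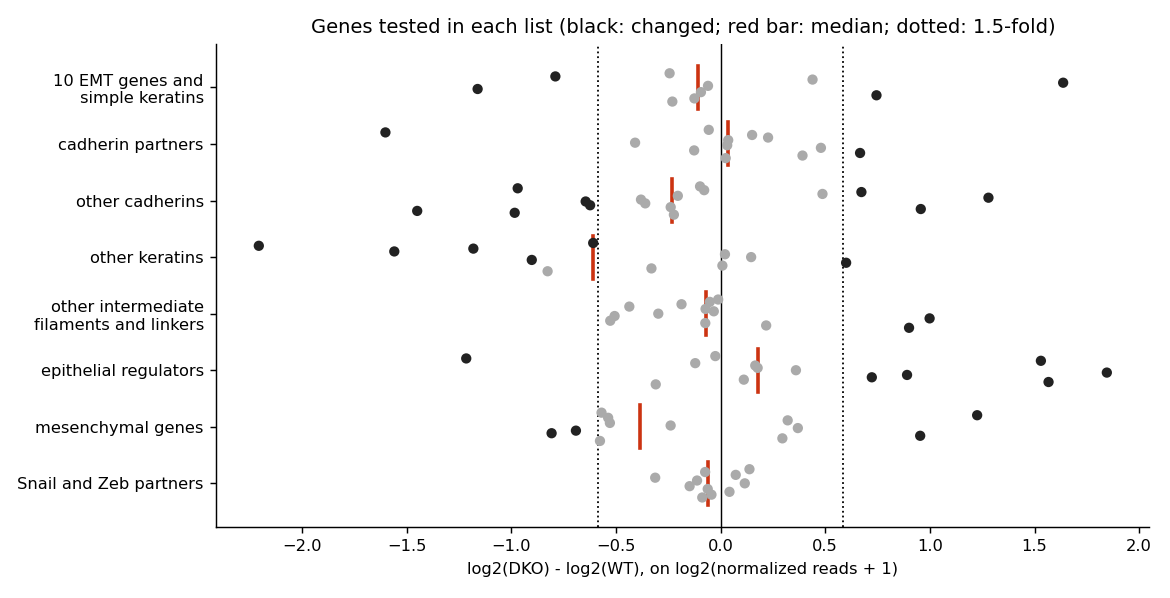
Log2 differences (DKO minus WT, horizontal axis, on the log2(normalized reads + 1) scale) of the 10 genes and of the tested genes of each list, 1 point per gene, black for changed genes, with a red bar at the list's median and dotted lines at 1.5-fold. The median is -0.61 for the other keratins, 0.18 for the epithelial regulators and -0.38 for the mesenchymal genes, and none of the Snail and Zeb partners passes 1.5-fold.

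Of the other marker lists, some share genes with the lists above (Grhl3, Krt14). Of the surface ectoderm markers, Grhl3 and Tfap2a rose and Krt14 fell (3 of 4 tested, of 6), with a summed level of 161 to 174 normalized reads in WT and 424 to 436 in DKO, while Krt5 had at most 3.41 normalized reads. The higher sum came mostly from Grhl3 (89.8 to 324). Trp63, the remaining tested gene, named after its values were seen, was not called changed (33.1 to 26.8). Of the primitive and visceral endoderm markers, 2 of 8 tested (of 10) rose, Gata6 (13.8 to 32.9) and Cubn (86.7 to 168), and none was called lower. The median of this list was -0.20, and Dab2, its most abundant gene in WT, was at 198 and 154 normalized reads (limma, adjusted p = 0.00238, within 1.5-fold). These markers had a summed level of 364 to 399 in WT and 406 to 481 in DKO, and Ttr was at 3 reads or fewer throughout. Of the early mesoderm markers, 3 of 4 tested (of 6) fell and 1 rose, T going from 45.8 to 15.4 normalized reads, with a sum of 95.04 to 101 in WT and 51.8 to 68.3 in DKO and with Msgn1 at 3 reads or fewer. Of these calls, that of Tbx6, named after its values were seen (19.6 to 12.0 normalized reads), was lost in 9 of 17 alternatives, among them DESeq2 and the fits without WT replicate 1, WT replicate 3, DKO replicate 2 or DKO replicate 3. Fibroblast markers fell in 2 of 6 tested (of 8), Dcn from 1329.6 to 300.4 and Col1a2 from 174 to 82.7, with a sum of 1624 to 1689 in WT and 521 to 571 in DKO and Postn at 3 reads or fewer. The other 4 tested were not called changed (log2 differences of -0.53 for Col1a1, 0.36 for Col3a1, 0.11 for Thy1 and 0.11 for Pdgfrb), so that the lower sum came mostly from Dcn. Their part in the values of the 10 genes was not tested.

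The epiblast markers were high in both groups, with a summed level of 105673 to 109456 normalized reads in WT and 102346 to 103766 in DKO. Most of this sum came from Dnmt3b (70390 in WT and 65421 in DKO), so it says little about the other markers. Fgf5 (3235 to 798) and Pou3f1 (6064 to 3948) fell and Sox2 (2798 to 7741) rose, while the other 3 of the 6 were not called changed. Those 3, named after their values were seen, passed the adjusted p within 1.5-fold. Otx2 (3596 to 4219) was higher, and Pou5f1 (21846 to 20761) and Dnmt3b were lower. No epiblast marker was absent from either genotype.

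**Figure D5:**
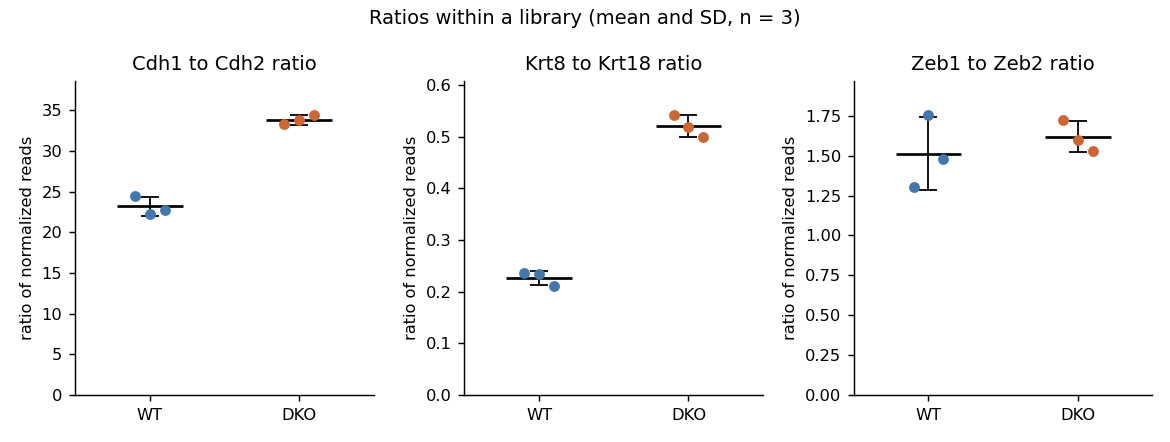
Ratios of normalized reads within each library (vertical axes, each starting at 0) for Cdh1 to Cdh2, Krt8 to Krt18 and Zeb1 to Zeb2, with points for the 3 WT (blue) and 3 DKO (orange) libraries and bars for the mean and SD. The first ratio lies at 22.3 to 24.5 in WT and 33.3 to 34.5 in DKO, the second at 0.211 to 0.235 and 0.500 to 0.543, and the third overlaps between the groups.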

How the data were processed

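RNA sequencing data of 3 WT and 3 DKO EpiLC differentiations were analysed. Per the labels, 800 ng of total RNA per sample was depleted of ribosomal RNA, made into stranded libraries and sequenced paired-end over 75 cycles. Per the study's methods and the submitters' processing notes, the authors removed ribosomal reads with Bowtie2, aligned the rest to mm10 with STAR, removed duplicates with SAMtools and counted reads over refGene gene bodies. Tool versions, and whether counting used strand, are not given in the sources used here. Of 800 pairs of entries with the same span and different exon length, 96.3% held identical values, as counting that includes introns would give.

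The deposited signal per entry and library is the authors' read count divided by 1 size factor per library, made with DESeq2 and not scaled for length. A second deposited table, not used here, holds the authors' own comparison (means, log2 fold changes, standard errors, Wald scores and p-values). Within a library all values were multiples of that of a single read, so reads were recovered by division, and 100% of the values in each library came out whole (within 0.01 reads). Size factors ranged from 1.76 to 1.93. The 138 rows without a symbol (0.517% of reads) were left out of tests and totals.

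Values were tested as log2(value + 1) in limma (version 3.58.1, under R 4.3.3), letting the variance follow the mean, over the 25361 entries that passed filterByExpr of edgeR (version 4.0.16), with Benjamini-Hochberg adjustment over all of them. A gene with several entries is given by the entry with the highest total. Fold changes in the tests are on the log2(value + 1) scale, which understates those of genes with few reads. Ratios were compared with exact permutation tests over libraries. P-values measure the spread between differentiations of 1 line each, and intervals cover that spread only, as the reads carry no molecular identifiers and need not come from separate molecules. The variance between pairs of replicates was 3.44 to 5.64 times the sampling variance, taking every read as a separate draw. Both ends of a fragment may have been counted, which would raise this value. It cannot tell separate differentiations from repeat libraries of the same culture.

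The 10 genes and all lists were chosen with earlier results of these data known. From each list, up to 4 changed genes with the largest difference are named, given a mean of at least 30 normalized reads in either group and no overlap between groups. Other genes are said to be named after their values were seen, and some items that these rules select are not reported here. Alternatives included the count tests of edgeR and of DESeq2 1.42.0, run on recovered reads, other pseudocounts (0.1 and 10), filters, normalizations, thresholds, a replicate block and the omission of each library. Promoter windows came from RefSeq (GRCm38.p6) and strands and overlapping genes from GENCODE on the same assembly.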

Additional observations from a re-analysis of the deposited data

How the results depend on the processing

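Between 3 and 6 of the 10 genes were changed over 18 alternatives, and 4 whenever 1 library was left out. Krt8 (log2 differences of 1.60 to 1.69), Vim (0.72 to 0.77) and Cdh2 (-0.81 to -0.77) were changed under every alternative. Snai2 (-1.32 to -0.63) lost its call only when tested against a fold change of 1.5, and was not tested where an average of 100 normalized reads was required. Snai1, never called, ranged from -0.20 to 0.094 without 1 library, with 0.094 without DKO replicate 3 and 0.035 without WT replicate 2, and Twist1 from -0.15 to 0.0090, with 0.0090 without DKO replicate 1. Among entries averaging 100 normalized reads or more, 1923 entries and 13 other pathway genes were changed, with no fold threshold 13977 and 60, and tested against a fold change of 1.5, 1735 and 12. These compare with 3904 and 28. Without 1 library, 3832 to 3895 entries and 28 to 32 pathway genes were changed. edgeR called 3942 entries and DESeq2 3714. The log2 ratio differences without 1 library were 0.52 to 0.59 (Cdh1 to Cdh2), 1.15 to 1.23 (Krt8 to Krt18) and 0.00 to 0.22 (Zeb1 to Zeb2).

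Replicate numbers are shared by the groups. Correlations of the deviations of same-numbered libraries over 11930 genes were 0.01, -0.03 and 0.04, so no strong shared effect was seen. Whether same-numbered cultures were handled together cannot be told from these values. With the replicate block 3913 entries and 4 of the 10 genes were changed. The depth limits Snai2 most, at 8 to 30 reads per library.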
